A study of Drosophila melanogaster with 4 samples.

Results

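The genes described here encode 10 subunits of the Brahma complexes of Drosophila melanogaster, which are ATP-driven chromatin remodellers of the SWI/SNF family. They were taken by symbol from a table of read-pair counts for 16727 genes, and all 10 were found in it, in all 4 libraries. The libraries came from whole embryos 16 to 18 h old. All embryos were homozygous for a deletion of the histone gene complex (deltaHisC) and carried a transgene with 12 copies of the histone gene unit. In group H3.2-WT, with 2 libraries, the genotype was deltaHisC; 12xH3.2-WT, with wild-type histone H3.2. In group H3.2-K4R, also with 2 libraries, it was deltaHisC; 12xH3.2-K4R, in which arginine replaced lysine 4 of H3.2. Embryos without the histone genes were picked by GFP, after eggs had been laid for 2 h and aged for 16 h at 25 °C. The histone variant H3.3 is encoded elsewhere in the genome, so some H3 with lysine 4 is expected in H3.2-K4R as well. A count per gene cannot show the replaced residue, so the labels of the groups were not checked against it. Nothing in the labels says that the 2 libraries of a group came from separate collections, so the spread behind each p-value may be technical.

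Brahma complexes slide or evict nucleosomes with energy from ATP. Several of their genes were found as Trithorax group genes, which keep homeotic genes active against Polycomb repression, and other Trithorax group proteins methylate lysine 4 of histone H3. The complex has a pair of forms that share a core: BAP, marked by the subunit Osa, and PBAP, marked by Polybromo, Bap170 and e(y)3 (also called SAYP). The comparison addresses whether the genes for this remodeller had other RNA levels where lysine 4 of H3.2 was replaced.

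No subunit gene passed the test between H3.2-K4R and H3.2-WT. Of the 10 members, all of which passed the filter on low counts, 0 were called higher and 0 lower by edgeR's quasi-likelihood test at a Benjamini-Hochberg adjusted p under 0.05, where 0.588% of the 11562 genes tested were called, 0.415% higher and 0.173% lower. Bap170, a PBAP subunit, and brm, the ATPase, were at an unadjusted p under 0.05, both with higher levels in H3.2-K4R. That is 2 of 10, where 16.9% of all tested genes were at such a p in either direction and 7.68% in the higher direction. DESeq2 called 1 member, Bap170, and limma-voom 0, where they called 665 and 173 of the 11562 genes. The log2 fold changes of the members ran from -0.41 for dalao to 0.53 for Bap170, with 6 above 0 and 4 below. Their median was 0.03, against -0.02 over all tested genes, of which 48.1% were above 0. In whole embryos, fewer cells that use a gene and less RNA per cell cannot be told apart.

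The depth of the 4 libraries ran from 33882742 to 45509930 counted pairs. The members together took 0.0911% and 0.105% of the pairs of the H3.2-WT libraries, and 0.109% and 0.0938% of those of the H3.2-K4R libraries. H3.2-K4R replicate 2 stood apart on the first principal component of all tested genes (53.6% of the variance), at 75.8, with the other libraries between -45.5 and 0.691. The replicates of both groups differed by more than sampling noise, by a chi-square test of genes with 10 or more pairs (53.4 per degree of freedom for H3.2-WT, 91.9 for H3.2-K4R). Blastoderm markers, genes of the early embryo, summed to between 2.52 and 3.79 CPM (counts scaled to library size) in the 4 libraries, and nullo, bnk, Sry-alpha, slam and halo were the 5 genes of that list. The neuron markers summed to between 2294 and 2771 CPM and the muscle markers to between 11283 and 14906 CPM, so both tissues of the late embryo were present.

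Per exon length, osa had the highest level of the 10 genes. It encodes the ARID-domain subunit that marks BAP. Its mean over the 4 libraries was 43.1 RPKM (CPM per kilobase of exon), above 87.3% of tested genes. The e(y)3 gene followed with a mean of 24.2 RPKM and a range of 22.2 to 26.6, and brm with 19.1 and a range of 15.4 to 22.6. The ranges of osa and e(y)3 did not overlap, those of e(y)3 and brm did, and e(y)3 lay above brm in all 4 libraries. All other members lay below brm without overlap, though dalao (15.42) and brm (15.43) were nearly equal in H3.2-WT replicate 1. Snr1 had a mean of 13.6, dalao of 12.4, mor of 11.1, Bap60 of 10.8, Bap170 of 9.12, Bap55 of 7.55 and polybromo of 5.98 RPKM. Each of these 7 overlapped its neighbours among them, so the order of neighbours is not settled by 4 libraries. Some genes further apart in the order did not overlap. The lowest Snr1 value (12.9) was above the highest of Bap60 (12.1), Bap170 (11.1) and Bap55 (10.1). The highest polybromo value (6.60) was below the lowest of Bap170 (7.23), and of every other member but Bap55. Polybromo, the lowest, still lay above 44.8% of tested genes. The levels are of RNA, and exon length was summed over all annotated isoforms, which lowers the value of a gene whose long exons are seldom used.

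**Figure D1:**
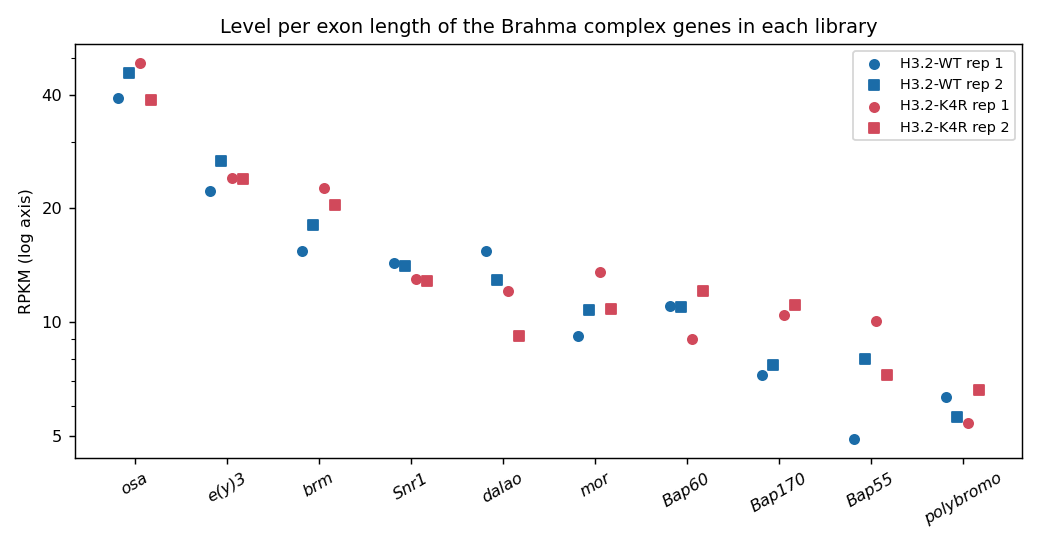
RPKM of each member (log axis) in each library, ordered by the mean over 4 libraries. H3.2-WT is blue and H3.2-K4R red, and circles and squares mark replicates 1 and 2. The osa points lie between 38.8 and 48.6 RPKM, above every other member, and the 4 points of polybromo lie between 5.42 and 6.60.

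Among the core subunits, brm encodes the ATPase that drives remodelling. The gene lies on chromosome 3L, 15970082 to 15982869 (build dm6), with 6 annotated transcripts. Its level was 86.4 and 101 CPM in the H3.2-WT libraries, against 126 and 114 CPM in the H3.2-K4R libraries, replicate 1 first. Both H3.2-K4R libraries were above both H3.2-WT libraries. The log2 fold change was 0.36 ± 0.15 (SE, n = 2 per group), with a 95% interval of 0.0025 to 0.72 and an edgeR adjusted p of 0.293. With each library left out in turn it ran from 0.26 to 0.48. Its replicates differed by 0.23 log2 units in H3.2-WT, with replicate 2 higher, and by 0.15 in H3.2-K4R, with replicate 1 higher. Within introns of brm, on the other strand, lie CG17026, CG17029, CG17028 and CG17027, none with an exon over one of brm. Their log2 fold changes were -0.08, -0.57, -0.99 and -0.92, with edgeR adjusted p of 0.211 or more, and counting used strand, so their pairs are kept apart from those of brm. Exons of other members overlap genes of the other strand in 2 places: mor with Rbf2 over 5 bases (log2 fold change of Rbf2 0.06, edgeR adjusted p = 0.988), and e(y)3 with CG14212 over 54 bases, which had 19 counts in all 4 libraries and was not tested.

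The gene mor (moira) encodes the scaffold subunit with SANT and SWIRM domains that binds Brm. It lies on 3R, 15968134 to 15972913. Its level was 36.5 and 42.9 CPM in H3.2-WT and 54.1 and 43.2 CPM in H3.2-K4R. The groups did not overlap, but replicates 2 of both groups were close to each other. The log2 fold change was 0.29 ± 0.18 (95% interval -0.13 to 0.72, edgeR adjusted p = 0.471). Leaving out H3.2-K4R replicate 1 gave 0.12, and leaving out replicate 2 of that group 0.45. The ratio of mor to brm was the steadiest of all 45 pairs of members. On the log2 scale of counts per kilobase it was -0.75 in each H3.2-WT library, -0.73 in H3.2-K4R replicate 1 and -0.91 in H3.2-K4R replicate 2, a range of 0.17.

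Snr1, on 3R from 5470926 to 5472754, encodes the counterpart of yeast SNF5 and human SMARCB1. It was at 19.1 and 18.8 CPM in H3.2-WT and 17.3 and 17.2 CPM in H3.2-K4R. Both H3.2-K4R libraries were lower, the replicates differed by 0.02 log2 units for H3.2-WT and 0.01 for H3.2-K4R, and the log2 fold change was -0.13 ± 0.18 (95% interval -0.55 to 0.28, edgeR adjusted p = 0.761). These distances were below the counting error of a difference, whose SD was 0.0747 and 0.0785 log2 units in the same order. The SE is larger than the spread of its own 4 values because edgeR shares information on the spread over genes.

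The gene dalao (current symbol Bap111), on X from 9149309 to 9151976, encodes the HMG-box subunit that can bind DNA. It had 41.1 and 34.4 CPM in H3.2-WT and 32.3 and 24.5 CPM in H3.2-K4R. Both H3.2-K4R libraries were below both H3.2-WT libraries, and within each group replicate 1 was above replicate 2. The log2 fold change of -0.41 ± 0.20 was the lowest of the members (95% interval -0.87 to 0.05, edgeR adjusted p = 0.350). Leaving out H3.2-K4R replicate 1 gave -0.63, and leaving out replicate 2 of that group -0.23.

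Bap60 and Bap55 are the other core genes. Bap60, on X from 13157445 to 13159508, encodes the counterpart of the mammalian BAF60 proteins. It had 21.3 and 21.2 CPM in H3.2-WT and 17.5 and 23.4 CPM in H3.2-K4R, so that the H3.2-K4R libraries lay on either side of the H3.2-WT libraries. Its log2 fold change was -0.06 ± 0.20 (edgeR adjusted p = 0.924). Bap55, on 2R from 17429353 to 17430963, encodes an actin-related protein that also belongs to other chromatin complexes. It had 7.22 and 11.8 CPM in H3.2-WT and 14.8 and 10.7 CPM in H3.2-K4R, which overlap. Of the members it had the fewest counts, 246 to 632 a library, and the widest interval: its log2 fold change was 0.42 ± 0.31 (95% interval -0.29 to 1.13, edgeR adjusted p = 0.538). Counting error gives the difference of the H3.2-WT replicates an SD of 0.111 log2 units, while the observed difference was 0.70 with replicate 2 higher, so the libraries differed by more than counting error. The fold change of Bap55 ran from 0.12 without H3.2-WT replicate 1 to 0.82 without the other H3.2-WT library.

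The BAP form is marked by osa alone. The gene lies on 3R, 17687818 to 17718350, and its exons cover 10723 bases, the longest of the members. It was counted 14319 to 22691 times a library, at 420 and 489 CPM in H3.2-WT and 521 and 417 CPM in H3.2-K4R. Replicate 1 was the higher library in H3.2-K4R and the lower one in H3.2-WT, and the groups overlapped. The log2 fold change was 0.04 ± 0.16, and its 95% interval, from -0.34 to 0.42, leaves room for moderate changes in both directions (edgeR adjusted p = 0.929).

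Of the genes that mark PBAP, Bap170 had the largest fold change of all members. It encodes an ARID-domain subunit needed for the stability of Polybromo in flies, and lies on 2R, 6636512 to 6642358. Its level was 38.4 and 41.0 CPM in H3.2-WT and 55.4 and 59.1 CPM in H3.2-K4R. The means were 39.7 ± 1.83 and 57.2 ± 2.64 CPM (SD, n = 2 each), and the gap between the groups was wider than that between the replicates. The log2 fold change was 0.53 ± 0.16, a fold of 1.44 with a 95% interval of 1.12 to 1.85. Over all genes tested this did not pass (edgeR adjusted p = 0.180; limma-voom adjusted p = 0.116), while DESeq2 placed it past the threshold (adjusted p = 0.0379). With each library left out in turn it stayed between 0.48 and 0.57, with edgeR adjusted p between 0.0907 and 0.695.

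The other genes that mark PBAP had fold changes near 0. Polybromo, on 3R from 24799967 to 24805259, encodes the subunit with several bromodomains, which bind acetylated histone tails. It had 32.3 and 28.6 CPM in H3.2-WT and 27.7 and 33.8 CPM in H3.2-K4R, with the H3.2-K4R libraries outside the H3.2-WT libraries on both sides (log2 fold change 0.01 ± 0.18, edgeR adjusted p = 0.980). The e(y)3 gene, on X from 19626548 to 19638369, encodes the PHD-finger protein SAYP, which also joins the general transcription factor TFIID. It had 204 and 244 CPM in H3.2-WT and 221 and 219 CPM in H3.2-K4R, with both H3.2-K4R libraries between the H3.2-WT libraries. Its log2 fold change was -0.03 ± 0.15, with a 95% interval of -0.36 to 0.31 (edgeR adjusted p = 0.955).

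In 5 of the 10 members the groups did not overlap in CPM: brm, mor and Bap170 were higher in H3.2-K4R, and Snr1 and dalao lower. Over all tested genes the groups did not overlap in 51.0%, with 23.6% higher and 27.5% lower, so this share is near the background and is not a result about the members. The core subunits were spread over both directions, 3 above and 3 below 0, and so were the genes that mark PBAP, 2 above and 1 below.

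**Figure D2:**
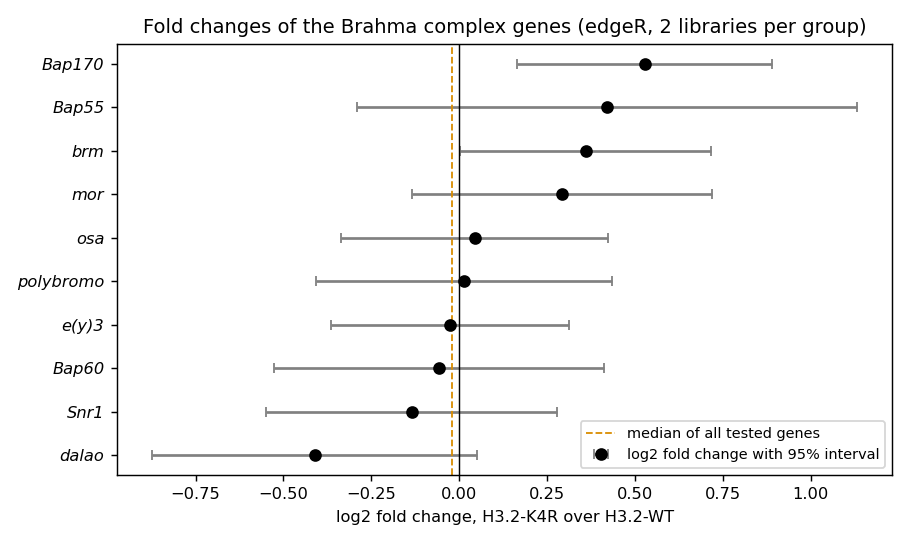
Log2 fold change of each member (H3.2-K4R against H3.2-WT), with its 95% interval (edgeR, 2 libraries per group); the dashed line is the median of all tested genes, at -0.02. The intervals of Bap170 (0.16 to 0.89) and brm (0.0025 to 0.72) lie above 0, and all others include it.

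Ratios between subunit genes within a library do not depend on how libraries are scaled, but a trend on exon length does not cancel in them. The ratio of PBAP-marking genes (mean of polybromo, Bap170 and e(y)3) to osa, in log2 of counts per kilobase, was -1.96 and -2.12 for replicates 1 and 2 of H3.2-WT, against -2.13 and -1.69 for those of H3.2-K4R. The groups overlapped, and the difference of 0.13 was smaller than the SD of 0.32 between the H3.2-K4R libraries. The difference was -0.09 when H3.2-K4R replicate 2 was left out, and 0.36 when replicate 1 of that group was, so its sign rests on H3.2-K4R replicate 2. Bap170 alone over osa was at -2.44 and -2.56 for H3.2-WT, against -2.22 and -1.80 for H3.2-K4R, without overlap; 14.6% of all other tested genes were higher relative to osa without overlap. The other genes that mark PBAP overlapped relative to osa, with differences of -0.03 for polybromo and -0.06 for e(y)3. The ratio of osa to the mean of the 6 core genes was 1.84 and 1.92 for H3.2-WT, against 1.93 and 1.76 for H3.2-K4R, again overlapping. With 2 libraries against 2 an exact permutation test cannot give a p below 0.33, so no p is given for these ratios.

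Relative to brm, 5 of the 9 other members had lower ratios in both H3.2-K4R libraries: dalao, Snr1, Bap60, e(y)3 and osa. This too is near the background: 52.6% of all other tested genes were lower relative to brm without overlap. The dalao to brm ratio differed most. On the log2 scale of counts per kilobase it was 0.00 and -0.49 for H3.2-WT, against -0.90 and -1.15 for H3.2-K4R, a difference of -0.78 between the group means. In H3.2-WT replicate 1 the RNAs of dalao and brm were equal per length, and in both H3.2-K4R libraries dalao was the lower one. Snr1 relative to brm was at -0.11 and -0.36 for H3.2-WT, against -0.80 and -0.66 for H3.2-K4R. With the exon-length trend removed, the difference of log2 fold change from brm was smaller for 3 of these genes. It went from -0.49 to -0.23 for Snr1, from -0.42 to -0.20 for Bap60 and from -0.77 to -0.63 for dalao. For osa it went from -0.32 to -0.42, and for e(y)3 from -0.38 to -0.46. The difference of log2 fold change between dalao and brm stayed below 0 in the 13 alternative settings, from -1.01 to -0.53. Among the 45 pairs, Bap55 and dalao had the widest range of ratios over the 4 libraries, 1.39 log2 units, and Bap170 and dalao had 1.37.

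**Figure D3:**
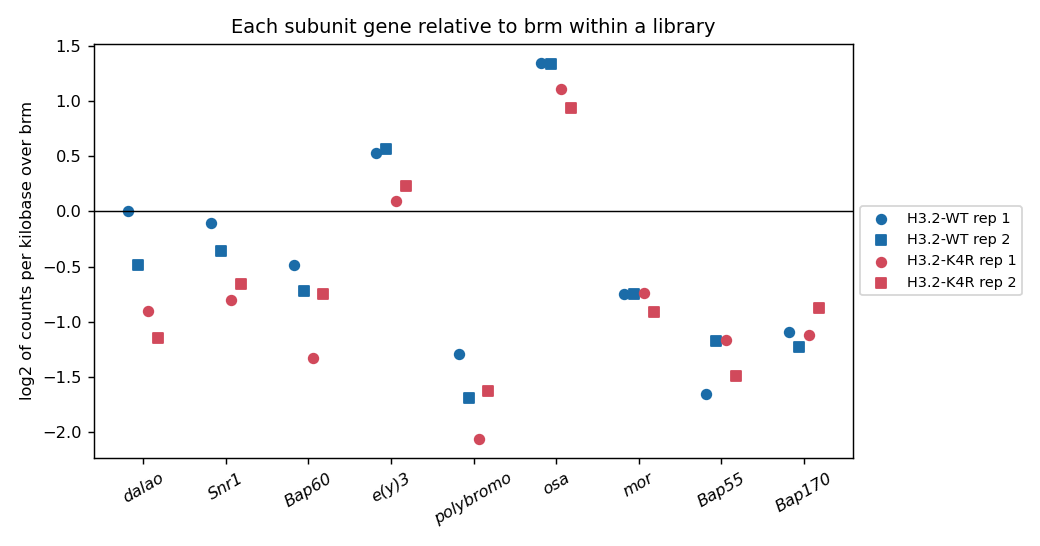
Log2 of counts per kilobase of each other member over brm, within each library; 0 means equal levels per length. H3.2-WT is blue and H3.2-K4R red, with circles and squares for replicates 1 and 2. The dalao points go from 0.00 and -0.49 in H3.2-WT to -0.90 and -1.15 in H3.2-K4R, while the mor points stay between -0.91 and -0.73.

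Exon length moved with fold change in this comparison, and the members span a wide range of it, from 1335 bases for Snr1 to 10723 for osa. Among tested genes whose log2 CPM was at least 4, the median log2 fold change was -0.24 in the 1202 genes of up to 1500 bases, -0.08 in the 1687 genes of up to 3000, 0.06 in the 1741 of up to 6000 and 0.19 in the 898 longer ones. Bap55, with a log2 CPM of 3.48, is below that limit and not among the 1202 genes. Set against the class of its length it, and dalao, Bap170, brm and mor against theirs, lay away from the median of their class by more than their SE, whereas Snr1, Bap60, polybromo and osa lay within it. The e(y)3 gene was below the median of the longest class by more than its SE. The share of all tested genes that lay so far from their class median was not counted, so this sorting is not a result about the members. With the trend on exon length removed from each library, Bap170 was at 0.42 ± 0.15 (edgeR adjusted p = 0.245), brm at 0.24 ± 0.14 (0.468), mor at 0.24 ± 0.18 and dalao at -0.39 ± 0.20 (0.393). Bap55 was then at 0.54 ± 0.31 and e(y)3 at -0.22 ± 0.13. Snr1 and Bap60 turned slightly positive (0.01 and 0.04), and osa and polybromo negative (-0.17 and -0.10), none past the threshold.

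**Figure D4:**
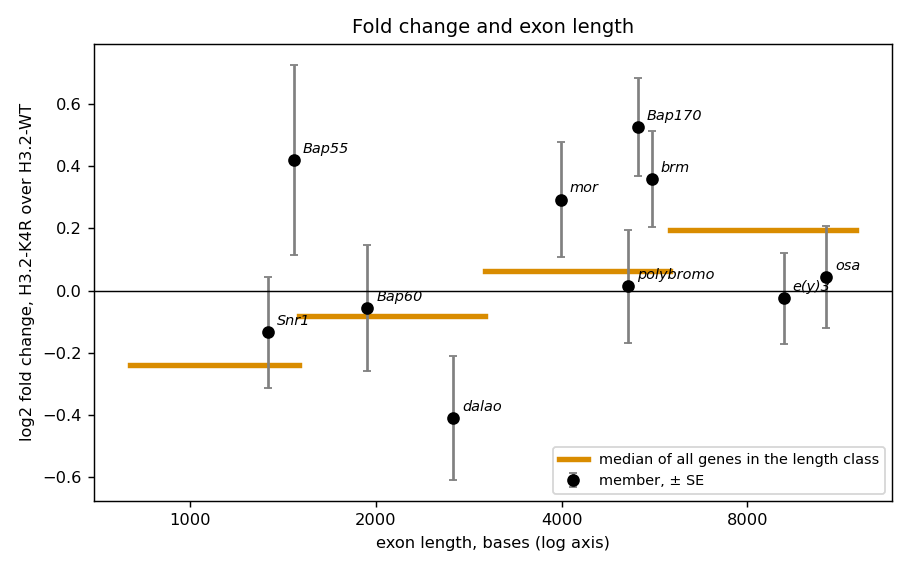
Log2 fold change of each member (± SE) against exon length (log axis), with the median of all genes whose log2 CPM was at least 4, in 4 length classes (orange; the outer classes are drawn only to the limits of the plot). Bap170, mor, brm and Bap55 lie above the median of their class and dalao below it.

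**Figure D5:**
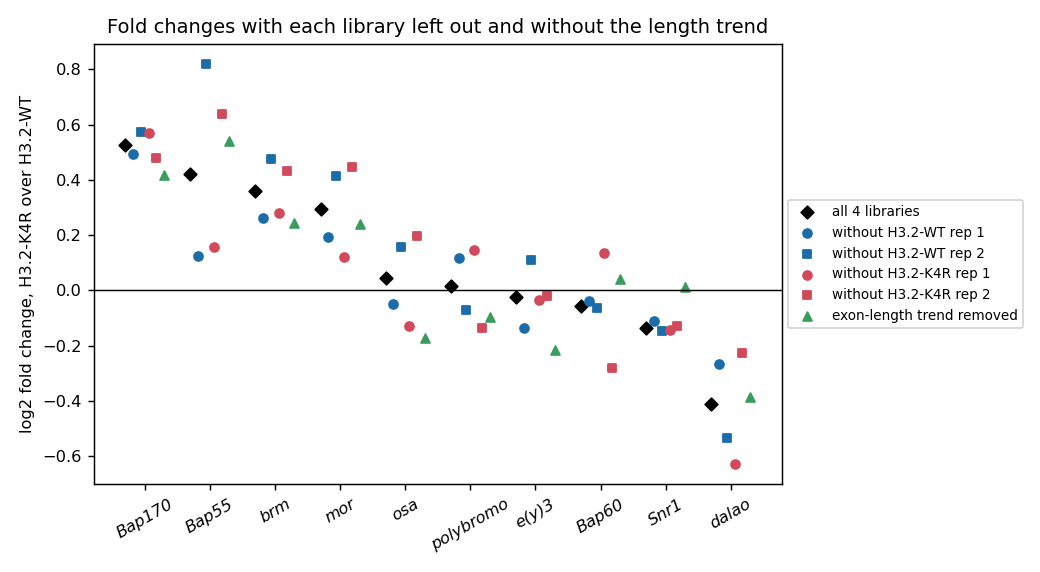
Log2 fold change of each member with all 4 libraries, with each library left out in turn, and with the exon-length trend removed. Bap170 stays between 0.42 and 0.57 and dalao below 0, while osa, polybromo, e(y)3, Bap60 and Snr1 fall on both sides of 0.

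Genes that work with or beside the Brahma complex gave the following counts, from lists that do not include the 10 members. Of 70 such genes, 0 were called in either direction by edgeR (at an unadjusted p under 0.05, 11 were higher and 0 lower), 2 were higher by DESeq2 and 0 were called by limma-voom. Over all tested genes edgeR called 0.588%, and DESeq2 called 665 of 11562. At such an unadjusted edgeR p, 7.68% of all tested genes were higher, and 1064 of the 11562 were lower. With the exon-length trend removed, 10 of the 70 were higher and 3 lower at such a p. Of all 11562 tested genes, 908 were then higher and 886 lower. The 14 other Trithorax group genes had a median log2 fold change of 0.22, with 11 above 0, and trx, which methylates lysine 4 of histone H3, had the lowest p at 0.55 ± 0.14 (edgeR adjusted p = 0.139). The median of that list was 0.03 with the exon-length trend removed, and 0.17 to 0.31 with 1 library left out. Its median exon length was 7609 bases, against 4551 for the Brahma members. Of the other remodeller families, the 9 ISWI family genes had a median of 0.18, with the ATPase gene Iswi at 0.60 ± 0.19. The 8 genes of the CHD family and NuRD had a median of 0.30, with the ATPase gene Mi-2 at 0.43 ± 0.18. That median was 0.09 with the exon-length trend removed, 0.02 when H3.2-WT replicate 1 was left out, and 0.12 when H3.2-K4R replicate 2 was. The 18 genes of INO80, SWR1 and Tip60 complexes had a median of 0.10, with Eaf6 at 0.68 ± 0.25, and their median was -0.0014 without H3.2-WT replicate 2. Among 7 reported partners of Brahma the median was 0.06, and CycE, whose protein binds Brahma in flies, was at 0.98 ± 0.29 (edgeR adjusted p = 0.179). The median of the partners changed sign, to -0.10 with the exon-length trend removed and to -0.07 without H3.2-K4R replicate 1, and was 0.11 when H3.2-WT replicate 2 was left out and 0.02 when H3.2-K4R replicate 2 was. The 14 TFIID subunit genes, whose complex SAYP joins, had a median of 0.11 (0.19 without H3.2-K4R replicate 2), with Taf11 at 0.95 ± 0.30. Act5C and Act42A, actin genes whose product can sit in the complex, were at 0.25 ± 0.17 and 0.03 ± 0.14; their coding parts are alike, and pairs that map equally well to both may be left out of their counts.

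Sums of markers for 4 of 5 tissues or cell types did not overlap between the groups, where 51.0% of all tested genes, taken singly, did not overlap. Summed over 7 neuroblast genes, the level was 249 and 312 CPM in H3.2-WT and 316 and 344 CPM in H3.2-K4R, and for 6 neuron genes 2294 and 2374 CPM against 2771 and 2681 CPM. For 6 muscle genes it was 14906 and 14595 CPM against 12386 and 11283 CPM, and each of the 6 was lower in both H3.2-K4R libraries, as were 27.5% of all tested genes. For 5 germ cell genes it was 11.4 and 12.5 CPM against 21.3 and 21.0 CPM. Among these, vas had 6.48 and 8.41 CPM against 15.2 and 15.5 CPM, and nos overlapped. Taken singly, 5 of 7 neuroblast, 4 of 6 neuron and 3 of 4 tested germ cell genes were higher without overlap. Over all tested genes 23.6% were. The neuron genes are long (median 11316 exon bases), and their median log2 fold change was 0.16. Genes over 6000 bases with a log2 CPM of at least 4 had a median of 0.19. The muscle genes (2375 bases) were at -0.36, against -0.08 for such genes of 1500 to 3000 bases. The neuroblast genes (3208 bases) were at 0.67, against 0.06 for those of 3000 to 6000. The part of exon length in the marker sums was not tested. The neuroblast gene with the highest level, pros, overlapped (157 and 192 CPM against 163 and 183 CPM). The sums overlapped for 5 hemocyte genes, at 274 and 320 CPM against 316 and 319 CPM. No marker in any of these lists passed the edgeR test over all genes, and 0 genes of these 5 lists were at 0 in all libraries. The part of tissue proportions in the values of brm, Bap170 and dalao was not tested.

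The mean profile of the 10 members over the 4 libraries, in log2 CPM relative to each gene's mean, was -0.11 and 0.01 for H3.2-WT, against 0.10 and 0.01 for H3.2-K4R. Of 5470 other genes whose mean log2 CPM was 4 or above, Ncoa6, CG7656 and CG10915 were nearest to it, with root-mean-square differences of 0.00838, 0.00912 and 0.00940 log2 units over 4 libraries. Between 514 genes (for e(y)3) and 4502 genes (for dalao) lay closer to this mean profile than the single members did.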

How the data were processed

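Total RNA of whole embryos was sequenced as 4 libraries, 2 per group, each from about 0.25 µg of RNA, with depletion of ribosomal RNA by a Drosophila kit per the labels' protocols. The authors deposited raw counts of read pairs. Per the file headers they came from featureCounts 2.0.6, which assigned pairs to the exons of each gene with regard to strand, from a dm6 annotation. STAR 2.7.7a, SAMtools 1.9 and Subread 2.0.6 are named in the submitters' processing notes. Pairs that map equally well to several places were not set to be counted, and how many of them a gene had was not measured here. The exon length (other unit, in bases) was deposited in the same table. Wild-type columns named HWT were taken as H3.2-WT, the one wild-type group, though the labels do not settle that HWT is not another wild-type histone line.

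The members and all gene lists were chosen with earlier results of these data known, so no list was tested. Coordinates are those of the table, and for all 10 members they equal those of the Ensembl annotation of the same build. Genes were filtered with filterByExpr (minimum count 10, minimum total 15) and tested with edgeR 4.0.16 in R 4.3.3 (TMM, quasi-likelihood, no block) over the whole table. The SE is the fold change divided by the square root of F, and intervals use the degrees of freedom of the test. CPM and RPKM use TMM library sizes. Log2 CPM profiles use a prior count of 2. Alternatives were DESeq2 1.42.0, limma-voom (limma 3.58.1), RLE and upper-quartile factors, no filter or 50 counts in 2 libraries, leaving out each library, a replicate block, and offsets from a loess trend (span 0.5) on exon length, alone or with the block. The tests were also run on simulated counts. These had independent replicates, the spread of the fitted trend and no library that stands apart. That run therefore does not show how well the tests hold for these 4 libraries. Members and up to 3 genes with the lowest p per list were to be named, with the 3 nearest profiles, overlapping genes and markers. No sequence is printed, since none was used here.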

Additional observations from a re-analysis of the deposited data

How the results depend on the processing

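No member was called in 11 of the 13 alternative settings. Bap170 was the exception: DESeq2 called 1 member (adjusted p = 0.0379), as did edgeR with a replicate block (1 member, adjusted p = 0.0348). With the block and the exon-length offset together the adjusted p of Bap170 was 0.138. Of the 11562 genes tested, DESeq2 called 665 and edgeR with the block 1366. In both settings 1 call among the members is thus near the background and is not a result about the members. The replicate numbers are shared by the groups, but no label says that a number marks a batch. Same-numbered libraries deviated together with a correlation of 0.106 over genes, and 2 pairs cannot settle a pairing. Over all genes edgeR called 68. The count was 665 with DESeq2, 173 with limma-voom, 979 without a filter, 135 with the exon-length offset, 1366 with the replicate block, 1075 with the block and the offset, and between 1 and 838 with 1 library left out. Of the 70 genes of the comparison lists, 2 were called with DESeq2, 4 without a filter, 7 with the replicate block and 6 with the block and the offset. The cause of these differences was not tested. The median log2 fold change of the members was 0.03 and ran from 0.039 to 0.13 with 1 library left out.

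Bap170, brm, mor and Bap55 had positive and dalao negative fold changes in all 13 settings. Members near 0 changed sign. With the exon-length offset osa was at -0.17, polybromo at -0.10, Snr1 at 0.012 and Bap60 at 0.040, and with the replicate block and the offset they were at -0.18, -0.094, 0.012 and 0.024. The e(y)3 gene was at 0.0036 with DESeq2 and with RLE factors. With 1 library left out, osa ran from -0.13 to 0.20, polybromo from -0.13 to 0.15, e(y)3 from -0.14 to 0.11 and Bap60 from -0.28 to 0.14. Bap55 had the fewest counts, 246 in its lowest library. Its H3.2-WT replicates differed by 0.70 log2 units, more than the counting SD of 0.111.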
